A study of Mus musculus with 24 samples.

Results

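The Hippo core genes are 10 genes of the pathway that controls the co-activators YAP and TAZ, chosen by name as textbook parts of the pathway. They are the co-activators Yap1 and Wwtr1 (which encodes TAZ), the DNA-binding partners Tead1, Tead2, Tead3 and Tead4, the kinases Lats1 and Lats2, the upstream regulator Nf2, and the TEAD cofactor Vgll4. All 10 were found by symbol among the 49315 genes of the count table, and all 10 were among the 17216 genes that passed the filter on low counts. The RNA came from liver tissue of mice, with 4 groups of 6 sequenced libraries. Transposon-borne AKT and YAP1, integrated into the genome, gave the tumour-bearing groups their cholangiocarcinoma, which is cancer of the bile ducts. The control groups had been given a vector without the oncogenes. Each treatment was given to wild-type and to Mdr2-/- animals. The latter have no functional Abcb4, the transporter that moves phospholipid into bile, and Mdr2-/- controls share this deletion. The labels give no age, strain or sex, do not say whether the delivered YAP1 was the human or the mouse gene, and name no promoter or cell type that drives the oncogenes. Yap1 was therefore read as the sum of what was assigned to the mouse gene, and how far reads of the delivered YAP1 were counted in it was not tested.

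When the Hippo kinases are active, LATS1 and LATS2 phosphorylate YAP and TAZ, which are then held in the cytoplasm or degraded. When the kinases are quiet, YAP and TAZ enter the nucleus and drive transcription through the TEAD proteins, while VGLL4 competes with them for TEAD. NF2 (merlin) promotes the activity of the LATS kinases. In the liver the pathway is known for its control of organ size and of the choice between hepatocyte and bile duct cell fate. Most of this control acts on the proteins, which RNA levels do not show.

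A TEAD protein binds a short DNA element with the letters CATTCC, or GGAATG on the other strand, and this element was searched on both strands in RefSeq promoter windows of the build GRCm38.p6, each 250 bases before to 50 after a gene's start. Windows were at hand for 8 of the 10 genes, without Tead1 and Tead4. At least 1 window held the element in 5 of these 8 genes (Yap1, Wwtr1, Tead3, Lats2 and Vgll4), against 16.6% of all 27025 genes with a window. Of the 13 windows of these genes 7 held the element, against 14.7% of all 32851 windows. It was not in the windows of Tead2, Lats1 and Nf2. The upstream sequences of Yap1 and Wwtr1 are shown because the levels of these partner co-activators went different ways with tumours in Mdr2-/- livers. Shorter stretches of Vgll4 and Tead3 are shown because they hold the same letters. All lie on the minus strand, are written 5′ to 3′ and have the element in capitals.
Yap1 (chr9:8004597-8004846): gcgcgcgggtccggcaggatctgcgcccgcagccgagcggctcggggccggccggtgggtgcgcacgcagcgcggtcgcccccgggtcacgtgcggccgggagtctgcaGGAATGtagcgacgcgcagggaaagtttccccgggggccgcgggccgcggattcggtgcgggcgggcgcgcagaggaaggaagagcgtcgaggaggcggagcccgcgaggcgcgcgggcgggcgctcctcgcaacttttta
Wwtr1 (chr3:57575911-57576160): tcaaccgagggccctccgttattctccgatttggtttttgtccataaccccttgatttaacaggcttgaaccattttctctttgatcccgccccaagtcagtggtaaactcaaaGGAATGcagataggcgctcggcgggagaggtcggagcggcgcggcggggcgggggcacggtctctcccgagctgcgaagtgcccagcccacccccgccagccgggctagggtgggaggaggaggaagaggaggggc
Vgll4 (chr6:114969253-114969312): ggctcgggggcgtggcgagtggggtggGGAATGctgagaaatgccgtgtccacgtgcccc
Tead3, most upstream window (chr17:28350955-28351014): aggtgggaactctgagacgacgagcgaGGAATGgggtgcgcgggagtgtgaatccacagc
Tead3, middle window (chr17:28350691-28350750): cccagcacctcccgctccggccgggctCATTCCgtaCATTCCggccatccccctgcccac
The element began 141 bases before the start in Yap1, 82 bases in Vgll4 and 182 bases in the most upstream of the 3 windows of Tead3. In Wwtr1 the same copy began 136 bases before the start of the window shown and 170 bases before that of another window. The stretch of the middle Tead3 window holds it in 2 copies that are 3 bases apart, that window holds it again at position 3 after the start, and the window farthest downstream holds none. In Lats2 it lay at position 5 after the start. The windows of Yap1 and Wwtr1 share the element but differ in base composition, with 74.0% and 61.7% G or C and with 49 and 20 CpG pairs. The median of all windows was 7 CpG pairs. The shares of all genes and windows above were not matched for base composition or for windows per gene. A match of letters is a description and not a binding site measured in these livers.

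Total counts were 20976459 to 30288385 per library. Abcb4, deleted in Mdr2-/- mice, was at 21.7 to 59.3 CPM (counts relative to library size after TMM scaling for composition) in the 12 Mdr2-/- libraries and at 165 to 378 CPM in the 12 wild-type libraries. Summed cholangiocyte markers (12 of 12 in the table, 0 of them at 0 in any group) were at 87.0 to 147 CPM in wild-type and 157 to 388 CPM in Mdr2-/- controls. With tumours they were at 200 to 1427 CPM in wild-type and 1143 to 4096 CPM in Mdr2-/- livers. Summed hepatocyte markers went the other way, with 128838 to 157520 CPM in wild-type controls and 36845 to 71852 CPM in Mdr2-/- livers with tumours. Summed stellate cell and fibroblast markers were at 564 to 678 CPM in wild-type controls and 784 to 1233 CPM with tumours, and in Mdr2-/- livers at 949 to 1528 CPM without and 1092 to 1528 CPM with tumours. For the other lists, ranges are given without and then with tumours. Macrophage markers were at 344 to 470 and 442 to 717 CPM in wild-type and at 593 to 1084 and 603 to 1271 CPM in Mdr2-/- livers. Taken singly at an edgeR adjusted p under 0.05, 0 of these 10 markers rose and 4 fell with tumours in Mdr2-/- livers. Of all genes 17.9% rose and 17.0% fell there. In wild-type livers 5 rose and 0 fell, against 16.9% and 11.5% of all genes. Lymphocyte markers were at 35.4 to 65.3 and 41.1 to 70.8 CPM in wild-type and at 37.7 to 72.4 and 72.0 to 85.5 CPM in Mdr2-/- livers. Endothelial markers were at 432 to 523 and 455 to 611 CPM in wild-type and at 382 to 462 and 313 to 436 CPM in Mdr2-/- livers. In such bulk tissue, fewer cells of a type and less RNA per cell cannot be told apart. On principal components 2 libraries stood apart, wild-type tumour replicate 6 and Mdr2-/- tumour replicate 1. Replicate numbers are only names here, and the labels do not say that each library is a separate animal, so p-values measure the spread between these libraries.

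In tumour-bearing livers the 2 genotypes shared 3 changes among the 10 genes: Wwtr1, Tead2 and Tead4 rose in both. Yap1 fell in Mdr2-/- livers, and Lats1 fell in wild-type livers. Lats2, Nf2, Vgll4, Tead1 and Tead3 passed the test in neither genotype. A gene was called at an edgeR adjusted p under 0.05. By this rule 3 of the 10 genes rose and 1 fell in Mdr2-/- livers, where 17.9% of all genes tested rose and 17.0% fell. In wild-type livers again 3 rose and 1 fell, against 16.9% and 11.5% of all genes. The median log2 fold change of the 10 genes was 0.16 in Mdr2-/- and 0.11 in wild-type livers, and that of all genes was 0.04 and 0.03. In Mdr2-/- mice the groups did not overlap in CPM for 1 gene that was higher (Wwtr1) and 1 that was lower (Yap1), against 7.38% and 7.62% of all genes. In wild-type mice this held for 1 gene that was higher (Tead4) and 1 that was lower (Lats1), against 7.27% and 3.49% of all genes.

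**Figure D1:**
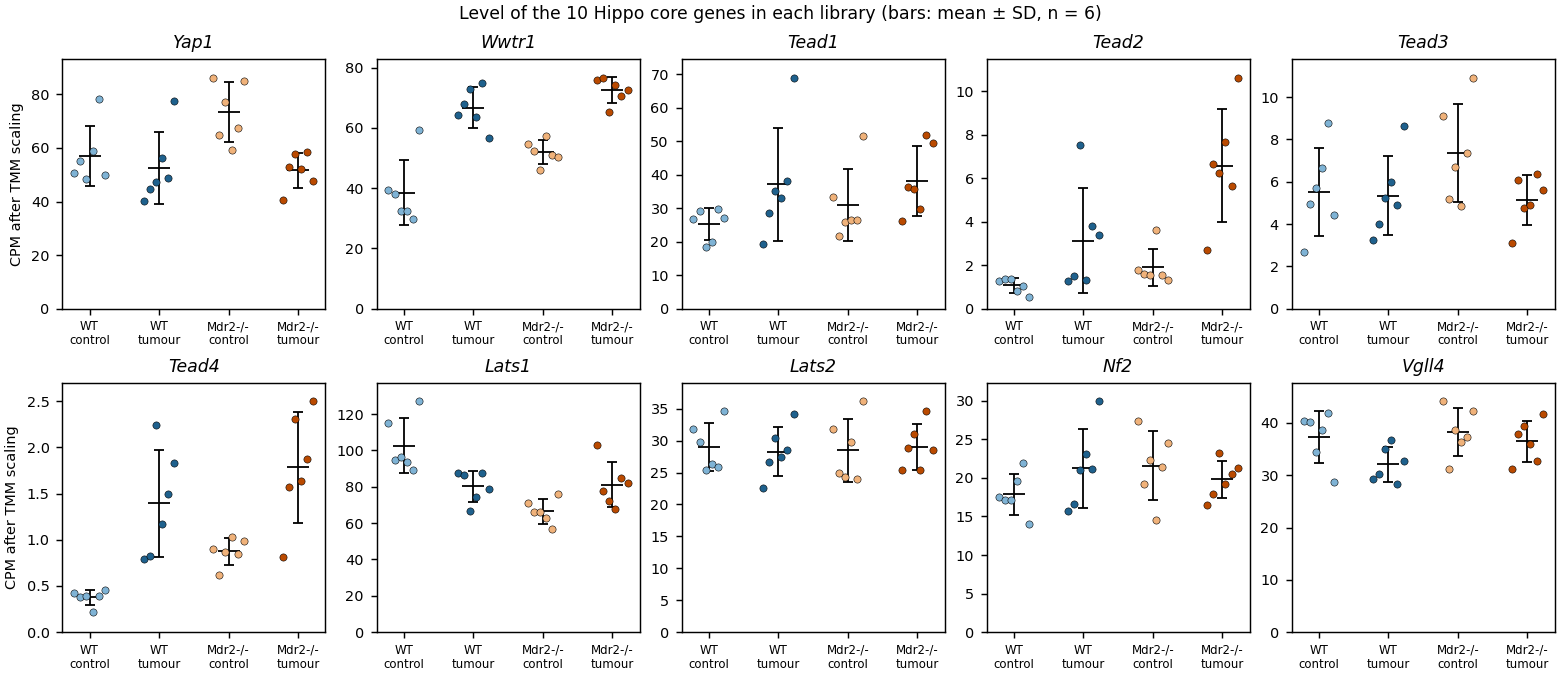
Level of each of the 10 genes in the 24 libraries, in CPM after TMM scaling, with a point per library and the mean ± SD of 6 libraries per group. Wwtr1 and Yap1 separate the Mdr2-/- groups in opposite directions, Tead4 lies highest in tumour-bearing livers, and the mean of Lats1 is highest in wild-type controls.

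Wwtr1 encodes TAZ, which like YAP lacks a DNA-binding domain of its own and acts through TEAD. In wild-type controls Wwtr1 ran from 29.7 to 59.2 CPM with a median of 35.2. In wild-type tumour-bearing livers it ran from 56.6 to 74.9 CPM with a median of 66.0. Only control replicate 6, at 59.2 CPM, reached into the tumour-bearing range. The log2 fold change was 0.79 ± 0.13 (SE), or 1.73-fold, with an edgeR adjusted p of 7.22e-05. In the Mdr2-/- groups Wwtr1 went from 45.9 to 57.3 CPM (median 51.6) in controls to 65.2 to 76.7 CPM (median 73.4), and all 6 tumour-bearing libraries lay above all 6 controls. That rise was 0.48 ± 0.13 on the log2 scale, or 1.40-fold (edgeR adjusted p = 0.00728). Over the 24 libraries the deviations of Wwtr1 from its group means had a Pearson r of 0.61 with those of the summed lymphocyte markers and 0.47 with those of the stellate cell and fibroblast markers. The part of these cells in the rise of Wwtr1 was not tested.

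Yap1 encodes YAP, the co-activator that was also delivered as an oncogene, yet reads assigned to the mouse gene did not rise in tumour-bearing livers of either genotype by the test. In Mdr2-/- controls Yap1 ran from 59.1 to 86.3 CPM with a median of 72.4. In Mdr2-/- tumour-bearing livers it ran from 40.7 to 58.6 CPM with a median of 52.5. The 2 groups did not overlap in CPM, but the highest tumour-bearing library lay just below the lowest control. In TPM, the deposited abundance corrected for gene length and library size, they did overlap. There the range was 14.1 to 23.8 in controls and 8.28 to 17.6 in tumour-bearing livers. The change of -0.51 ± 0.15 on the log2 scale had an edgeR adjusted p of 0.0137. In wild-type livers Yap1 was at 48.6 to 78.4 CPM (median 52.9) in controls and at 40.2 to 77.5 CPM (median 48.0) in tumour-bearing livers, and these ranges overlapped almost entirely. The wild-type change of -0.12 ± 0.15 was not called (edgeR adjusted p = 0.600), and its 95% interval ran from -0.43 to 0.19.

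Whether the fall of Yap1 in Mdr2-/- livers was called depended on covariates, scaling and the test used. The share of counts in 7 nuclear non-coding RNAs was 1.74 to 4.29% in control and 4.60 to 7.95% in tumour-bearing Mdr2-/- livers. Across the 24 libraries, after group means were removed, Yap1 and this share had a Pearson r of -0.87, a description of libraries that share depth and composition. With the summed lymphocyte, macrophage and hepatocyte markers the r of Yap1 was -0.69, -0.64 and 0.32. With the nuclear share as a covariate the change of Yap1 was 0.03 (edgeR adjusted p = 0.921). That fit called 695 rises and 261 falls among all genes in this comparison, against 3074 and 2921 without the covariate. The share did not overlap between the 2 Mdr2-/- groups, so here the fit can hardly tell it apart from the tumour effect. This limit holds for every Mdr2-/- tumour effect given with this covariate. With the same covariate the rise of Wwtr1 in Mdr2-/- livers was 0.29 (edgeR adjusted p = 0.309) and its rise in wild-type livers was still called. Library size alone, with no composition scaling, gave a Yap1 change of -0.25 (edgeR adjusted p = 0.210), at a shift of the median of all genes to 0.28. Relative to that median Yap1 changed by -0.54, close to the -0.55 with TMM scaling. The call was also lost with limma on log2(TPM + 1) and on log2(TPM + 0.1). It held in 9 of 13 other alternatives and in all 12 fits that left out 1 library. Whether the nuclear share or these cell types have a part in the fall of Yap1 was not tested.

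The TEAD proteins are the DNA-binding end of the pathway. Tead1 was the most abundant of the 4 in every group, and it was not called in either tumour comparison. Its changes were 0.30 ± 0.24 in Mdr2-/- livers (edgeR adjusted p = 0.328) and 0.56 ± 0.24 in wild-type ones (edgeR adjusted p = 0.0851). Its spread was wide, with 19.2 to 69.0 CPM among wild-type tumour-bearing livers, where replicate 6 held the highest value. With the nuclear RNA share as a covariate Tead1 was called in both genotypes, at 1.03 (edgeR adjusted p = 0.0167) in Mdr2-/- and 0.74 (edgeR adjusted p = 0.00421) in wild-type livers.

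Tead2, a TEAD gene known for its expression in embryonic tissue, rose the most of the 10 in Mdr2-/- livers. In that genotype its level was 1.34 to 3.61 CPM (median 1.57) in controls and 2.69 to 10.6 CPM (median 6.43) in tumour-bearing livers. Tumour-bearing replicate 1, at 2.69 CPM, was the only one below the highest control. The log2 fold change was 1.79 ± 0.38, or 3.46-fold (edgeR adjusted p = 0.00147). With the nuclear RNA share as a covariate it was 1.62 (edgeR adjusted p = 0.0571). In wild-type livers Tead2 was at 0.545 to 1.38 CPM (median 1.16) in controls and at 1.28 to 7.51 CPM (median 2.43) in tumour-bearing livers. The wild-type tumour-bearing libraries were split, with replicates 1, 2 and 4 at 1.28 to 1.48 CPM, next to the controls, and replicates 3, 5 and 6 at 3.38 to 7.51 CPM. The group difference was 1.56 ± 0.41 on the log2 scale (edgeR adjusted p = 0.00558).

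The summed cholangiocyte markers were split in the same way, at 200, 357 and 235 CPM in wild-type tumour-bearing replicates 1, 2 and 4 and at 1427, 1365 and 703 CPM in replicates 3, 5 and 6. Over all 24 libraries the deviations of Tead2 from its group means had a Pearson r of 0.90 with those of the summed cholangiocyte markers, and those of Tead4 had an r of 0.71. The part of bile duct cell number in the rise of Tead2 was not tested. Exons of Tead2 overlap those of Cd37, a leukocyte gene on the opposite strand in the GENCODE annotation of GRCm38. The library kit is not stated to mark strand, so reads of these genes cannot be told apart where they overlap. Over 24 libraries Cd37 held 1229 counts and Tead2 2231. Cd37 itself was not called in either tumour comparison, with log2 changes of -0.39 (edgeR adjusted p = 0.138) in Mdr2-/- and 0.40 (edgeR adjusted p = 0.171) in wild-type livers.

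**Figure D2:**
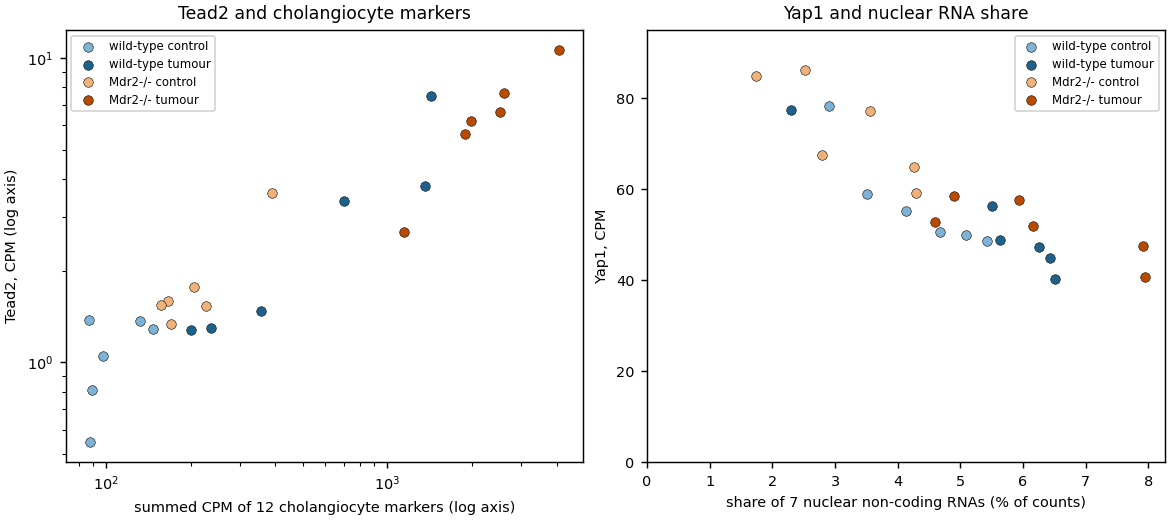
Left, Tead2 in CPM against the summed CPM of 12 cholangiocyte markers, both on log axes. Right, Yap1 in CPM against the share of counts in 7 nuclear non-coding RNAs in percent. Each point is 1 of the 24 libraries, coloured by group: Tead2 is high in libraries with high cholangiocyte markers (r = 0.90 after group means were removed), and Yap1 is low in libraries with a high nuclear share (r = -0.87).

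Tead4 was the least abundant TEAD gene and rose in both genotypes. In wild-type livers it went from 0.213 to 0.454 CPM (median 0.390) in controls to 0.792 to 2.24 CPM (median 1.34) in tumour-bearing livers, with no overlap. These control levels rest on only 5 to 10 counts per library, against 18 to 66 counts in the tumour-bearing livers. The log2 fold change was 1.89 ± 0.30, or 3.70-fold (edgeR adjusted p = 4.89e-05). Among Mdr2-/- livers Tead4 went from 0.614 to 1.04 CPM (median 0.884) to 0.810 to 2.50 CPM (median 1.76). Again tumour-bearing replicate 1 was the only one inside the control range. The Mdr2-/- rise was 1.03 ± 0.27, or 2.04-fold (edgeR adjusted p = 0.00586). Tead4 was called in every alternative that tested it in both tumour comparisons.

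Tead3 was not called in either genotype. It changed by -0.52 ± 0.25 in Mdr2-/- livers (edgeR adjusted p = 0.108), with 4.88 to 10.9 CPM in controls and 3.09 to 6.37 CPM with tumours. The wild-type change was -0.05 ± 0.26 (edgeR adjusted p = 0.906). Its wild-type interval, -0.58 to 0.48, leaves room for a change of either sign.

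The LATS kinases phosphorylate YAP and TAZ, and the 2 genes differed in their pattern. Lats1 ran from 89.3 to 127 CPM (median 95.6) in wild-type controls and from 66.5 to 87.7 CPM (median 82.6) in wild-type tumour-bearing livers. In CPM no tumour-bearing library reached the lowest control, though the gap was small. In TPM the 2 groups overlapped, at 19.56 to 29.85 in controls and 20.23 to 25.41 in tumour-bearing livers. The edgeR change was -0.36 ± 0.12 on the log2 scale (edgeR adjusted p = 0.0254). In the Mdr2-/- groups Lats1 was at 56.6 to 75.9 CPM (median 66.1) in controls and at 67.5 to 103 CPM (median 79.8) in tumour-bearing livers, and these ranges overlapped. The change there was 0.29 ± 0.12, short of the threshold (edgeR adjusted p = 0.0569). It was called as a rise in 2 of the 12 fits that left out 1 library and in 6 of 13 other alternatives. One of these was total library size, at 0.53, where the median of all genes was 0.28. Relative to the median of all genes Lats1 changed by 0.25 there and by 0.25 with TMM scaling. The 2 tumour effects on Lats1 differed by 0.65 ± 0.17 on the log2 scale (edgeR adjusted p = 0.00778), the one such difference called among the 10 genes, where 25.3% of all genes were called. It was called with each of the 24 libraries left out in turn, but not with limma on log2(TPM + 1), at 0.43 (adjusted p = 0.0680).

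The wild-type fall of Lats1 depended on scaling and on single libraries. With total library size it was -0.06 (edgeR adjusted p = 0.685), and with limma on log2(TPM + 1) it was -0.05 (adjusted p = 0.783). These scales shifted the median of all genes to 0.33 and 0.20. Relative to those medians Lats1 changed by -0.39 and -0.25, against -0.38 with TMM scaling. The call was also lost without wild-type tumour replicate 3 or 4 or without wild-type control replicate 1 or 6, and the change over the 12 fits that left out 1 library was -0.38 to -0.29. It was lost as well with no filter (edgeR adjusted p = 0.104). With only the 12 wild-type libraries in the fit it was also lost (edgeR adjusted p = 0.0505). The same held with a covariate for low or high numbers in the library names (edgeR adjusted p = 0.0576). All wild-type tumour-bearing libraries had high numbers, and of the wild-type controls only replicate 6 did. Name number and tumours thus nearly coincide in wild-type mice and can hardly be told apart.

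Lats2 kept a narrow range, from 22.7 to 36.2 CPM over all 24 libraries. Its tumour effects were 0.03 ± 0.13 in Mdr2-/- livers (95% interval -0.23 to 0.28) and -0.03 ± 0.13 in wild-type livers (95% interval -0.29 to 0.22), with edgeR adjusted p of 0.889 and 0.872. Nf2 was at 14.0 to 30.0 CPM, and its effects were -0.12 ± 0.16 in Mdr2-/- and 0.25 ± 0.16 in wild-type livers (edgeR adjusted p = 0.545 and 0.241). The highest Nf2 value, 30.0 CPM, was in wild-type tumour replicate 6, the library that stood apart. Vgll4, the competitor of YAP and TAZ on TEAD, was at 28.4 to 44.2 CPM and changed by -0.07 ± 0.11 in Mdr2-/- and -0.22 ± 0.11 in wild-type livers (edgeR adjusted p = 0.640 and 0.145). None of these intervals reached a change of 1 on the log2 scale.

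**Figure D3:**
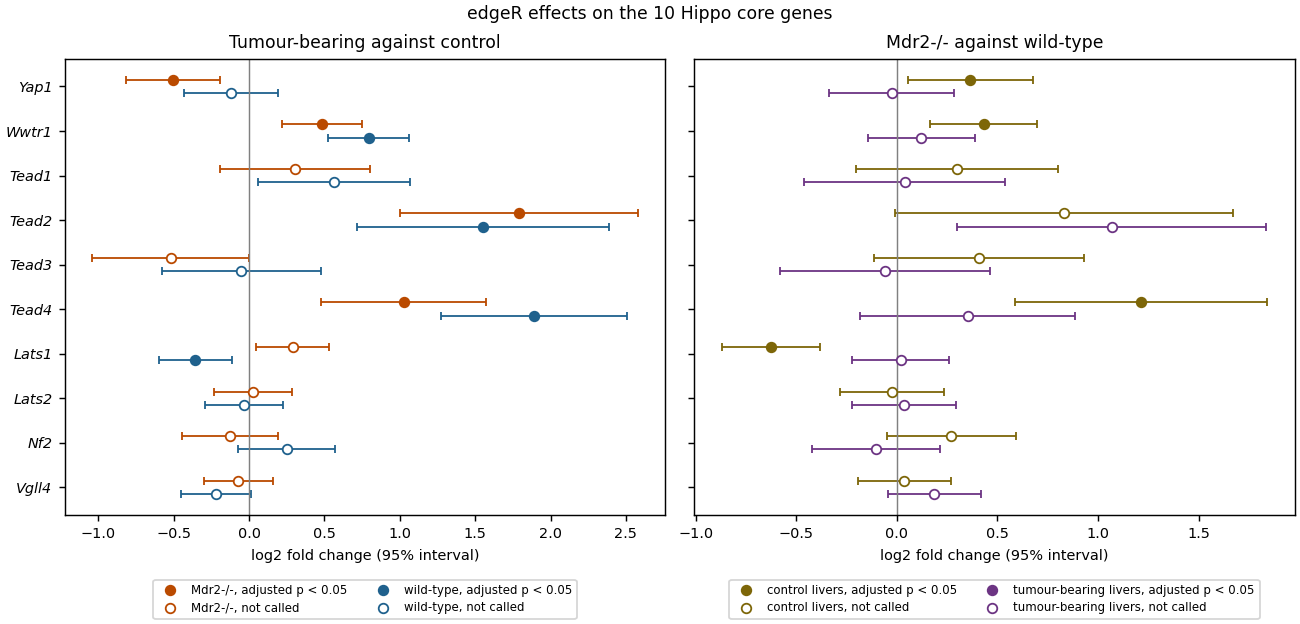
Log2 fold changes of the 10 genes with 95% intervals from edgeR, for tumour-bearing against control livers (left) and Mdr2-/- against wild-type livers (right). Filled points passed an adjusted p of 0.05. In the left panel Wwtr1, Tead2 and Tead4 are filled on the right of 0 in both genotypes, Yap1 and Lats1 on the left in 1 genotype each.

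The genotype was compared in the same fit. In control livers 3 of the 10 genes were higher in Mdr2-/- than in wild-type mice (Wwtr1, Tead4 and Yap1) and Lats1 was lower, against 26.2% of all genes higher and 24.3% lower. Tead4 was higher by 1.21 ± 0.30 on the log2 scale, or 2.32-fold (edgeR adjusted p = 0.00207), and Wwtr1 by 0.43 ± 0.13, or 1.35-fold (edgeR adjusted p = 0.00792). Lats1 changed by -0.63 ± 0.12 (edgeR adjusted p = 0.000141), and in CPM all 6 Mdr2-/- controls lay below all 6 wild-type controls. For Tead4 all 6 lay above. Groups were apart in CPM in this way, higher or lower in Mdr2-/- controls, for 13.7% and 10.6% of all genes. In TPM the Lats1 ranges overlapped, at 18.25 to 27.01 in Mdr2-/- and 19.56 to 29.85 in wild-type controls. With limma on log2(TPM + 1) the difference in Lats1 was -0.16 (adjusted p = 0.257), where the median of all genes was 0.30. Yap1 was higher by 0.36 ± 0.15 with an edgeR adjusted p of 0.0473, a call that was lost in 8 of the 12 fits that left out 1 library and in 8 of 13 other alternatives. In these controls the nuclear RNA share was 2.91 to 5.42% in wild-type and 1.74 to 4.29% in Mdr2-/- livers.

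Between tumour-bearing livers of the 2 genotypes 0 of the 10 genes were called by edgeR, where 11.1% of all genes were called. At an unadjusted p under 0.05 there was 1, Tead2, higher in Mdr2-/- livers by 1.07 ± 0.37 (edgeR adjusted p = 0.0639). DESeq2 called the same gene at 1.06 (adjusted p = 0.0371), and without the 2 libraries that stood apart edgeR called it too. Tumour effects and genotype effects share groups of libraries, so they are given side by side only. For Tead4, the medians were 0.390, 1.34, 0.884 and 1.76 CPM in wild-type controls, wild-type livers with tumours and the corresponding Mdr2-/- groups, and the 2 tumour-bearing groups overlapped.

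Ratios within a library do not depend on how libraries are scaled to each other. For 6 ratios and 4 comparisons, 24 tests in all, log2 ratios of TPM (the deposited transcript abundance, corrected for gene length and library size) were compared by 2-sided exact permutation tests, which cannot go below p = 0.00216 with 6 libraries a group. The ratio of Wwtr1 to Yap1 rose in tumour-bearing livers of both genotypes. For Mdr2-/- livers it went from 1.40 ± 0.287 (SD, n = 6) to 2.78 ± 0.503, with no overlap between groups (exact p = 0.00216, adjusted 0.0130). In wild-type livers it went from 1.37 ± 0.525 to 2.60 ± 0.668 (exact p = 0.0108, adjusted 0.0371). Control replicates 1 and 6, at 1.51 and 2.29, lay in the range of the tumour-bearing group. Tumour-bearing replicates 4 and 6, at 2.18 and 1.41, lay in the range of the controls. In this order their nuclear RNA shares were 4.67%, 5.09%, 5.51% and 2.30%. Over the 24 libraries this share had a Pearson r of -0.87 with Yap1 and 0.39 with Wwtr1 after group means were removed. Its part in the ratio was not tested. The call in wild-type livers was lost in 8 of the 12 tests that left out 1 library, with adjusted p up to 0.0635.

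The ratio of Lats2 to Lats1 was higher in Mdr2-/- than in wild-type controls, at 0.428 ± 0.0477 against 0.283 ± 0.0178 (SD, n = 6), with no overlap (exact p = 0.00216, adjusted 0.0130). It kept this call in all 12 tests that left out 1 library. The tumour effects on this ratio were not called, with exact adjusted p of 0.126 in Mdr2-/- and 0.0823 in wild-type livers. The ratio of Vgll4 to the summed TEAD genes went from 2.04 ± 0.328 in wild-type controls to 1.34 ± 0.479 in tumour-bearing livers (exact adjusted p = 0.0390). That call was lost without the 2 libraries that stood apart, at a log2 difference of -0.52 (exact adjusted p = 0.0571), and in 7 of the 12 tests that left out 1 library, with adjusted p up to 0.0831. In Mdr2-/- livers the ratio was 1.60 ± 0.233 in controls and 1.22 ± 0.286 in tumour-bearing livers (exact adjusted p = 0.0879).

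**Figure D4:**
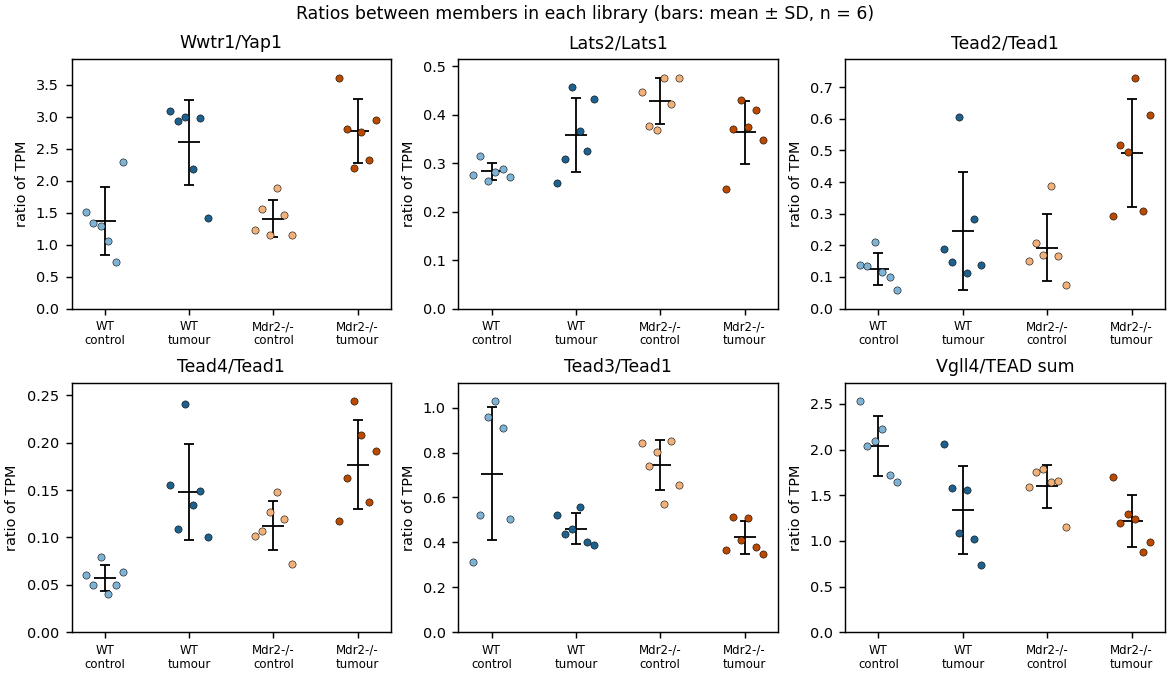
Ratios between members in each library, computed from TPM, with a point per library and the mean ± SD of 6 libraries. The mean ratio of Wwtr1 to Yap1 in Mdr2-/- mice is 1.40 without and 2.78 with tumours, and the ratio of Lats2 to Lats1 is lowest in wild-type controls (0.283).

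Within the TEAD family the mean share of Tead3 was smaller, and those of Tead2 and Tead4 larger, in tumour-bearing than in control livers of both genotypes. The summed TPM of the 4 genes was 5.75 ± 1.40 without and 10.7 ± 5.45 with tumours in wild-type mice (SD, n = 6). In Mdr2-/- mice it was 10.6 ± 3.86 without and 14.9 ± 5.31 with tumours. Tead1 made up 48.4 to 54.6% of that sum on average in the 4 groups. Tead2 went from 6.65 ± 2.44% to 12.5 ± 7.40% in wild-type and from 9.25 ± 4.89% to 23.0 ± 5.58% in Mdr2-/- livers. Tead4 went from 3.10 ± 0.866% to 7.82 ± 1.55% and from 5.46 ± 1.04% to 8.38 ± 1.67%. Tead3 went from 36.0 ± 10.2% to 25.1 ± 4.08% and from 36.3 ± 4.84% to 20.2 ± 2.37%. The shares sum to the whole in a library, so they are not independent of each other.

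Ratios to Tead1 carry the tests. Tead2 to Tead1 rose in Mdr2-/- livers by 1.45 on the log2 scale (exact adjusted p = 0.0260), and its wild-type difference of 0.81 was not called (exact adjusted p = 0.152). Tead4 to Tead1 rose by 1.35 in wild-type livers with no overlap (exact adjusted p = 0.0130), and its rise was 0.64 in Mdr2-/- livers (exact adjusted p = 0.0404), the latter lost in 9 of 12 tests that left out 1 library. It was higher by 0.98 in Mdr2-/- than in wild-type controls (exact adjusted p = 0.0208). Tead3 to Tead1 changed by -0.82 in Mdr2-/- livers with no overlap (exact adjusted p = 0.0130) and by -0.50 in wild-type livers (exact adjusted p = 0.179).

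**Figure D5:**
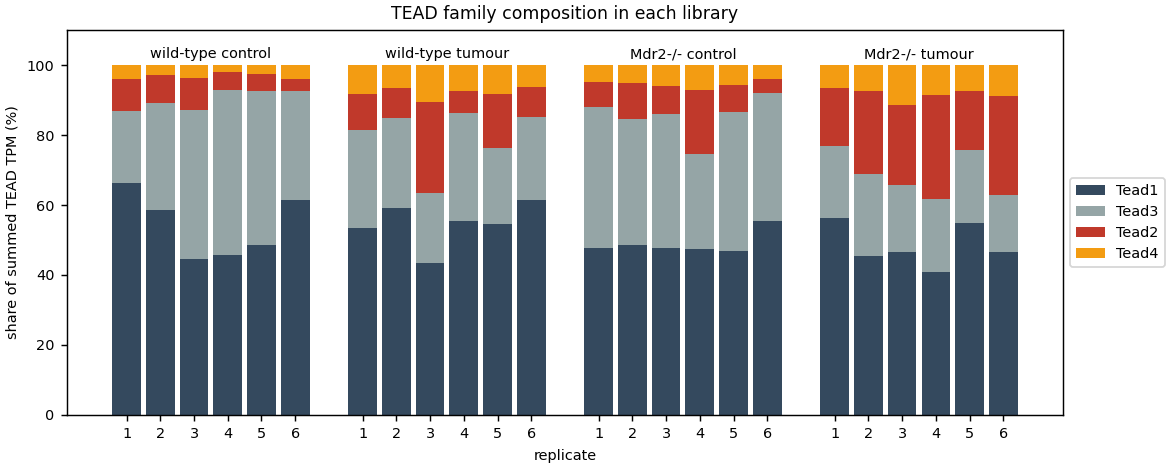
Share of each TEAD gene in the summed TEAD TPM of each of the 24 libraries, in percent. The Tead2 part is widest in Mdr2-/- tumour-bearing livers, at a mean of 23.0%, and among wild-type tumour-bearing livers it is widest in replicate 3, at 26.3%.

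On the per-length scale of TPM the order of the 10 genes was similar in all groups. In wild-type controls the means ran from Lats1 at 23.3 ± 3.52 TPM (SD, n = 6), Wwtr1 at 13.3 ± 3.89, Vgll4 at 11.5 ± 1.85, Yap1 at 10.3 ± 2.89, Lats2 at 6.57 ± 0.833, Nf2 at 4.37 ± 0.940, Tead1 at 3.08 ± 0.675 and Tead3 at 2.13 ± 0.963 to Tead2 at 0.367 ± 0.104 and Tead4 at 0.173 ± 0.0408 TPM. Neighbours in this order overlapped in range, except that Yap1 lay apart from Lats2 and Tead3 apart from Tead2. Wwtr1 took the top place from Lats1 in the other 3 groups, at 28.7 ± 5.06 TPM in wild-type mice with tumours and, in Mdr2-/- mice, at 24.7 ± 2.67 TPM without and 37.6 ± 4.87 TPM with tumours. In each of these groups the ranges of Wwtr1 and Lats1 still overlapped, with Wwtr1 above Lats1 in 6 of 6 libraries. In Mdr2-/- tumour-bearing livers Tead2, at 3.52 ± 1.64 TPM, passed Tead3, at 2.96 ± 0.955 TPM, in 4 of 6 libraries.

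The 10 genes did not vary as 1 block between libraries. Over the 24 libraries, as deviations from group means on the log2 CPM scale, Yap1 went with Nf2 (Pearson r = 0.87), Tead3 (r = 0.84) and Tead1 (r = 0.71), and against Wwtr1 (r = -0.49). Tead1 went with Lats2 (r = 0.80) and Tead2 with Tead4 (r = 0.73). Without the 2 libraries that stood apart these values were 0.82, 0.78, 0.51, -0.42, 0.76 and 0.66 in the same order. The nuclear RNA share had r = -0.87 with Yap1, -0.78 with Tead3, -0.72 with Nf2 and -0.72 with Tead1, and r = 0.39 with Wwtr1. These are descriptions over libraries that share depth and composition.

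Among 9885 genes with a mean of at least 5 CPM, the genes whose deviations from group means over the 24 libraries were most like those of Yap1 were Rara (Pearson r = 0.97), Smcr8 (r = 0.97), Fam222b (r = 0.97) and Zbtb7a (r = 0.96). For Wwtr1 they were Mef2a (r = 0.89), Fam76a (r = 0.86), Mcl1 (r = 0.86) and Phf14 (r = 0.86). Rara encodes a retinoic acid receptor, Mef2a a transcription factor and Mcl1 an anti-apoptotic protein.

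Of 42 other Hippo genes, 41 were tested, all but Vgll1. In Mdr2-/- livers 5 rose and 7 fell (17.9% and 17.0% of all genes) with a median log2 fold change of -0.05. In wild-type livers 11 rose and 3 fell (16.9% and 11.5% of all genes) with a median of 0.15. The splits moved with scaling: with total library size they were 13 and 0 in Mdr2-/- livers, where 5565 of all genes rose and 924 fell, and 22 and 1 in wild-type livers, where 5783 rose and 603 fell. The 7 binders of YAP and TAZ held 2 rises in Mdr2-/- and 4 in wild-type livers, and 0 falls. Of all genes 17.9% and 16.9% rose and 17.0% and 11.5% fell in these genotypes. Among the binders Ptpn14 and Ajuba are also in the list of targets below, so the counts of both lists share these genes. Ptpn14, a phosphatase that holds YAP back, rose from 5.40 ± 2.08 to 13.3 ± 5.23 CPM (SD, n = 6) in Mdr2-/- livers, by 1.30 ± 0.31 on the log2 scale (edgeR adjusted p = 0.00364). In wild-type livers it rose by 1.07 ± 0.32 (edgeR adjusted p = 0.0148). Ajuba, a LIM protein that binds LATS kinases, rose from 3.72 ± 0.972 to 17.4 ± 6.56 CPM in wild-type livers, by 2.22 ± 0.27 (edgeR adjusted p = 1.32e-06). Its Mdr2-/- levels were 16.9 ± 4.16 and 20.7 ± 7.32 CPM, a change of 0.29 ± 0.25 that was not called (edgeR adjusted p = 0.363), and the tumour effects differed by -1.93 ± 0.36 between genotypes (edgeR adjusted p = 0.000783). Wtip, of the same protein family, rose by 1.16 ± 0.23 in Mdr2-/- and 1.11 ± 0.25 in wild-type livers (edgeR adjusted p = 0.000861 and 0.00186).

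Smaller groups of these genes are counted against the same 17.9% and 17.0% of all genes that rose and fell in Mdr2-/- livers and 16.9% and 11.5% in wild-type livers, and with so few members nothing particular to a group is read from its count. Among the 11 genes of the kinase module 1 rose (Stk3) and 3 fell (Mob1a, Stk4 and Taok3) in Mdr2-/- livers. In wild-type livers 1 rose (Map4k4) and 2 fell (Mob1b and Stk38l). Stk3 and Stk4 encode the MST kinases that activate LATS. Taok3, a kinase upstream of them, changed by -0.74 ± 0.22 in Mdr2-/- livers (edgeR adjusted p = 0.0135). Of 11 upstream scaffold and polarity genes 1 rose in Mdr2-/- livers (Rassf1) and 3 rose in wild-type livers (Rassf1, Wwc1 and Wwc2), with 0 falls. Rassf1, which binds the MST kinases, rose from 2.14 ± 0.0478 to 5.30 ± 1.25 CPM in wild-type livers, by 1.31 ± 0.15 (edgeR adjusted p = 9.03e-07). Of 6 genes of the STRIPAK phosphatase, which opposes the MST kinases, 1 rose and 2 fell in Mdr2-/- livers, and Strn3 rose there by 0.90 ± 0.25 (edgeR adjusted p = 0.00805). In wild-type livers 1 of the 6 rose (Strn4) and 1 fell (Slmap). Of 4 genes for YAP and TAZ degradation 2 fell in Mdr2-/- livers (Csnk1d and Fbxw11) and 1 rose in wild-type livers (Csnk1e). Of the TEAD cofactors tested, Vgll3 rose in wild-type livers.

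Of 22 known targets of YAP, TAZ and TEAD, 21 were tested, all but Foxf2. In Mdr2-/- livers 9 rose and 1 fell, where 17.9% and 17.0% of all genes did, with a median log2 fold change of 0.42 (all genes 0.04). In wild-type livers 12 rose and 1 fell, against 16.9% and 11.5%, with a median of 0.70 (all genes 0.03). With the nuclear RNA share as a covariate the Mdr2-/- counts were 4 and 0, where 695 of all genes rose and 261 fell. With total library size the wild-type counts were 18 and 1, where 5783 of all genes rose and 603 fell. The targets also differed by genotype in control livers, which had been given no oncogenes. There 13 were higher and 2 lower in Mdr2-/- than in wild-type mice, against 26.2% and 24.3% of all genes. The median log2 difference was 0.805 (all genes 0.03). The part of the cell type markers given above in any of these counts was not tested. Ctgf and Cyr61, listed in the files under these older symbols of Ccn2 and Ccn1, encode secreted matricellular proteins. Ctgf rose from 26.7 ± 18.1 to 82.5 ± 29.7 CPM (SD, n = 6) in Mdr2-/- livers, by 1.63 ± 0.35 (edgeR adjusted p = 0.00156), with overlapping groups. In wild-type livers it rose from 10.8 ± 2.99 to 43.0 ± 22.3 CPM, by 2.00 ± 0.36 (edgeR adjusted p = 0.000198), and all 6 tumour-bearing libraries lay above all 6 controls. Cyr61 rose in wild-type livers by 0.70 ± 0.26 (edgeR adjusted p = 0.0412), and its Mdr2-/- change of -0.15 ± 0.25 was not called (edgeR adjusted p = 0.674). Ankrd1 rose by 2.28 ± 0.58 in Mdr2-/- and 2.76 ± 0.64 in wild-type livers, and Tgfb2 by 1.77 ± 0.40 and 3.13 ± 0.45 (edgeR adjusted p = 0.00519, 0.00229, 0.00243 and 1.45e-05).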

How the data were processed

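Liver RNA libraries were made after removal of ribosomal RNA and sequenced as paired ends, per the labels' protocols, which do not say that strand was kept. The authors deposited raw counts per gene and TPM values. On a check of 6588 genes the deposited TPM equalled the count divided by 1 fixed length per gene and scaled per library, within 0.0025%. The submitters' processing notes name the build mm39 and DESeq2, with aligner, counter and annotation not given in the sources used here.

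Counts were compared by edgeR 4.0.16 in R 4.3.3 (filterByExpr with a minimum count of 10, TMM factors, robust glmQLFit, glmQLFTest) in 1 model of 24 libraries with a mean per group. Adjusted p is Benjamini-Hochberg over 17216 genes, called under 0.05, and the biological coefficient of variation was 0.272. A gene at 1 CPM rests on 16.4 to 34.2 counts. Rows without a symbol, 174 in number, held 0.0111 to 0.0178% of counts and stayed in the fit. Ratios were tested in Python 3.11.15 with scipy 1.17.1. Alternatives used DESeq2 1.42.0, limma 3.58.1 on log2(TPM + 1) or log2(TPM + 0.1), other factors and filters (a minimum count of 50 or none), only the 12 libraries compared, covariates, removal of mitochondrial and haemoglobin genes, and left-out libraries. The edgeR script was tested on simulated data. Members and lists were chosen with earlier results of these data known. Named besides the 10 genes are up to 4 called genes of at least 1 CPM with the largest change per list and tumour comparison, and the 4 nearest genes of Yap1 and Wwtr1. Other names in the lists' counts, the values of Cyr61, and Cd37 were added after their values were seen.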

Additional observations from a re-analysis of the deposited data

Results flagged for a closer look

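In the 40 groups of 6 libraries checked for a value far from the others, 2 held one by Dixon's test, where chance gives about 1 in 20. Tead2 was at 3.61 CPM in Mdr2-/- control replicate 4, above the other 5 controls of its group, which were at 1.34 to 1.76 CPM. The same library had the highest summed cholangiocyte markers of its group, at 388 CPM. Tead4 was at 0.213 CPM in wild-type control replicate 4, below the other 5 libraries of its group, on 5 counts.

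The tumour effect on Lats1 differed between genotypes by 0.65 on the log2 scale (edgeR adjusted p = 0.00778 for the difference itself). It was -0.36 in wild-type and 0.29 in Mdr2-/- livers.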

How the results depend on the processing

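The 3 rises shared by both genotypes kept their direction in every alternative run, and in wild-type livers Wwtr1, Tead2 and Tead4 were called in every alternative that tested them. Tead4 was not tested under the stricter filter. With log2(TPM + 1) the size of the low genes shrank, to 0.70 for Tead2 in wild-type livers. Yap1 in Mdr2-/- livers went to 0.0334 with the nuclear RNA share as a covariate, where 2 members were called in that comparison. The difference of tumour effects had 0 calls with no filter, log2(TPM + 1) or log2(TPM + 0.1). The genotype effect in controls had 9 calls with total library size (7247 rises and 2325 falls among all genes), 7 with log2(TPM + 0.1) (8403 and 1668) and 2 with the stricter filter (3618 and 3322 of 13084). The genotype effect in tumour-bearing livers had 2 calls with total library size, and 1 with log2(TPM + 1), log2(TPM + 0.1), DESeq2 or without both libraries that stood apart. For Vgll4 to the TEAD sum the wild-type log2 difference was -0.68 from CPM (exact adjusted p = 0.0520) and -0.52 without both libraries, no longer called, and the Mdr2-/- difference was -0.52 without them, now called. The causes were not tested.

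With 1 library left out, calls ran from 1 to 2 for the difference of tumour effects (2 without wild-type control replicate 6) and from 0 to 1 for the genotype effect in tumour-bearing livers (1 without Mdr2-/- tumour replicate 1 or wild-type tumour replicate 3). Log2 ratio differences that gained or lost a call ran from 0.24 to 0.40 (Lats2 to Lats1, wild-type tumour effect), 1.01 to 1.50 (Tead2 to Tead1, genotype effect in tumour-bearing livers), -0.71 to -0.37 (Tead3 to Tead1, wild-type tumour effect) and 0.52 to 0.75 (Tead4 to Tead1, Mdr2-/- tumour effect). For Vgll4 to the TEAD sum they ran from -0.41 to -0.26 (genotype effect in controls), -0.52 to -0.32 (Mdr2-/- tumour effect) and -0.81 to -0.52 (wild-type tumour effect). For Wwtr1 to Yap1 they ran from 0.79 to 1.12 (wild-type tumour effect). No paired analysis was possible because the labels give no replicate numbers. Depth limits Tead4, at 5 to 10 counts in wild-type controls.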

Other observations

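In control livers many of the other Hippo genes differed by genotype, as did all genes, of which 26.2% were higher and 24.3% lower. Of 41 tested, 20 were higher and 6 lower in Mdr2-/- controls than in wild-type controls, with a median log2 difference of 0.39 (all genes 0.03). With total library size the counts were 31 and 3, where the median of all genes was 0.33. Of the 7 binders of YAP and TAZ 5 were higher, Ajuba, Amot, Limd1, Ptpn14 and Wtip. All 3 genes called for YAP and TAZ degradation, Csnk1d, Csnk1e and Fbxw11, were higher. Between tumour-bearing livers 5 of the 41 were higher in Mdr2-/- mice (Frmd6, Ptpn14, Sike1, Vgll3 and Wtip) and 0 were lower, where 11.1% of all genes were called in either direction.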
